A study of Mus musculus with 16 samples.

Results

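The transcription factor Nrf2 and 9 antioxidant enzymes were examined in mouse embryonic stem (ES) cells with and without the CpG-binding protein Cfp1, before and after exposure to doxorubicin. The 10 genes were taken by name, from the 22375 genes of the count tables, as the gene for Nrf2 (Nfe2l2) and a set of genes whose products make glutathione, reduce oxidized thiols, break down heme or remove superoxide and peroxide. All 10 were found by symbol and Ensembl identifier, and all 10 passed the filter on low counts, with between 299 counts (Srxn1) and 20992 counts (Txnrd1) in a library. The same 4 of them rose or fell after doxorubicin in each cell line, with Gclc, Hmox1 and Srxn1 higher and Gclm lower by edgeR's test, a share no larger than that of all genes (48.3% in WT and 48.8% in Cfp1−/− cells). Between the lines, 4 thiol and glutathione genes (Gclc, Gclm, Txnrd1 and Srxn1) were lower in Cfp1−/− cells with and without the drug, whereas Gpx1 was higher. Of all genes, 34.0% were called between untreated lines (16.1% lower) and 25.9% between treated lines (10.8% lower). The calls of Gpx1, and those of Gclc and Srxn1 in treated cells, were lost in some fits that left out a replicate. So were the doxorubicin calls of Gclm and Srxn1 in both lines and that of Hmox1 in Cfp1−/− cells. Only Gclc kept its doxorubicin call in both lines in all these fits.

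The 4 groups were each sequenced as 2 biological replicates, with 2 technical replicates of each: untreated WT (E14TG2a, strain 129/OLA) ES cells, doxorubicin-treated WT cells, untreated Cfp1−/− cells and doxorubicin-treated Cfp1−/− cells. Each genotype was a single cell line, so that loss of Cfp1 and any other difference between the lines cannot be told apart. All groups were grown on gelatin in serum with LIF, in a medium that also held the reducing agent 2-mercaptoethanol, and treated cells received doxorubicin for 6 hours. The treatment protocol gives the dose as 1 μM, while the treatment label of the treated samples reads 1 mM. Ribosomal RNA was depleted from total RNA before strand-specific library preparation.

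In unstressed cells Nrf2 is held in the cytoplasm by Keap1, an adaptor that hands it to the Cul3 ubiquitin ligase for destruction. Oxidants and electrophiles modify cysteines of Keap1, Nrf2 then accumulates, enters the nucleus, pairs with a small Maf protein and binds the antioxidant response element in front of its target genes. Control of Nrf2 is thus largely at the level of the protein, which RNA-Seq does not measure. Doxorubicin, an anthracycline, breaks DNA by trapping topoisomerase II, and its quinone group can also be reduced and reoxidized in cells with release of superoxide. Among the 10 genes, Gclc and Gclm encode the catalytic and modifier subunits of glutamate-cysteine ligase, the first step of glutathione synthesis. Txnrd1 encodes the cytosolic thioredoxin reductase, and Srxn1 the sulfiredoxin that repairs overoxidized peroxiredoxins. Hmox1 encodes heme oxygenase 1, which breaks heme down to biliverdin, iron and carbon monoxide. Sod1 and Sod2, the cytosolic and the mitochondrial superoxide dismutase, turn superoxide into hydrogen peroxide, which catalase (Cat) and glutathione peroxidase 1 (Gpx1) remove.

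The core of the antioxidant response element, written TGACNNNGC, was sought on both strands of RefSeq promoter windows (build GRCm38.p6), from 250 bases before to 50 bases after each transcription start, and the matches of the members are shown because this is the element that Nrf2 binds. Of the 8 members with a window, 5 held the core (62.5%), against 13.99% of all 27025 genes with a window and 12.39% of all 32851 windows. In the pathway lists described below, it was held by 3 of 11 genes for Nrf2 control and 0 of 10 for glutathione. The thioredoxin and peroxiredoxin list had 1 of 10, the quinone, conjugation and NADPH list 3 of 9, and the heme and iron list 1 of 5. The windows of Sod2, Cat and Gpx1 held no match, and Gclc and Hmox1 had no window. The matches are shown 5′ to 3′ on the strand that reads TGAC, with the core in capitals and 8 bases on each side.
Nfe2l2, chr2:75704887-75704911, minus strand: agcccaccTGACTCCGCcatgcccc
Gclm, chr3:122245415-122245439, minus strand: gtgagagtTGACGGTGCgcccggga
Txnrd1, chr10:82859106-82859130, minus strand: tgtcagaaTGACAAAGCaaaaatcc
Srxn1, chr2:152105544-152105568, minus strand: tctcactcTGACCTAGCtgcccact
Sod1, chr16:90220698-90220722, minus strand: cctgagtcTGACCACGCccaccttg
The base of the core farthest upstream lay 240 bases before the start in Nfe2l2, 134 in Gclm, 92 in Txnrd1 and 56 in Sod1, and in Srxn1 it was base 29 of the transcript. Only the core of Nfe2l2 reads in the direction of its gene. The core overlaps the AP-1 site TGACTCA where GC follows it, which none of these 5 matches does. A match describes the reference sequence and not a bound site.

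Total counts per biological replicate ranged from 14880589 to 29422711, and all treated libraries were smaller than all untreated ones. Cxxc1, the gene for Cfp1, had 616 to 1412 counts in WT libraries and 1 to 5 in Cfp1−/− libraries. The 8 pluripotency markers checked were present in every library. Their summed normalized count was 68893 to 93980 in untreated WT and 74132 to 74942 in untreated Cfp1−/− cells. After treatment it was 26620 to 35939 in WT and 25030.5 to 32903 in Cfp1−/− cells, so that this sum fell in both lines. The sum hid opposite differences between the untreated lines. Mean normalized counts were higher in Cfp1−/− than in WT cells for Nanog (13544 against 5035), Esrrb (11553 against 5039), Klf4 and, slightly, Sox2. They were lower for Zfp42 (5056 against 12814), Pou5f1 (9563 against 15280), Tdgf1 and Dppa5a. With treatment Dppa5a fell little in WT cells (7217 to 6720). Of markers of other cell types, 5 fibroblast genes summed to 203 to 237 in untreated WT against 60.8 to 62.1 in untreated Cfp1−/− cells, and to 349 to 511 against 297 to 349 after treatment. Most of this rise was Col1a1, whose mean went from 73.1 to 283 in WT and from 9.02 to 221 in Cfp1−/− cells. In WT cells Thy1 also rose (38.4 to 73.4), Postn hardly moved (2.55 to 2.37), and Col1a2 (52.7 to 41.0) and Col3a1 (53.4 to 29.8) fell. The neural genes Pax6 and Neurog2, nearly all of it Pax6, summed to 739 to 1761 in untreated WT against 91.3 to 108 in untreated Cfp1−/− cells, and to 30.6 to 79.9 against 24.5 to 25.1 after treatment. The endoderm list lay between 25.02 and 100.1 and the mesoderm list between 126 and 575 in all groups, and no marker was at 0 in every library. The part of these cell-type markers in the results below was not tested, and fewer cells of a type and less RNA per cell cannot be told apart in bulk RNA. In 1 technical run, the second of replicate 1 of treated Cfp1−/− cells, 439 genes with at least 200 counts in the first run had 0, but none of the 10 members was among them, and their run ratios (0.455 to 0.778) lay around the median of all such genes (0.556). The 2 runs of replicate 1 of treated WT cells also differed by more than counting error (chi-square per degree of freedom 9.61, against 42.9 in replicate 1 of treated Cfp1−/− cells and 0.998 to 1.05 in the other 6), and both second runs were left out together as an alternative.

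On the build NCBIM37, whose coordinates the count tables use, the genes stand as follows, each as a protein-coding gene counted over its exons. Nfe2l2 (ENSMUSG00000015839) lies at chr2:75513570-75542698 on the minus strand, as does Cat (ENSMUSG00000027187) at chr2:103294006-103325317, and the others are on the plus strand. Gclc (ENSMUSG00000032350) lies at chr9:77602342-77642292 and Gclm (ENSMUSG00000028124) at chr3:121948475-121972902. Txnrd1 (ENSMUSG00000020250) lies at chr10:82296696-82360469 and Srxn1 (ENSMUSG00000032802) at chr2:151931252-151937112. Hmox1 (ENSMUSG00000005413) lies at chr8:77617490-77624495. Sod1 (ENSMUSG00000022982) lies at chr16:90220987-90226567, Sod2 (ENSMUSG00000006818) at chr17:13200705-13210985 and Gpx1 (ENSMUSG00000063856) at chr9:108241607-108242671.

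Levels are given as normalized counts, the sum over the technical replicates divided by the size factor that the authors took from DESeq, and per kilobase of exon where genes are compared with each other. Per kilobase, Sod1 had the highest level in all 4 groups, at 9891 ± 903 (SD, n = 2) normalized counts per kilobase in untreated WT and 10846 ± 902 in untreated Cfp1−/− cells. Txnrd1 came next in untreated WT cells (4226 ± 298 per kilobase) and was followed by Gpx1 (2422 ± 70.4). In untreated Cfp1−/− cells these 2 had changed places, with Gpx1 at 4049 ± 798 and Txnrd1 at 2358 ± 264 per kilobase and no overlap between their replicates. Treated cells of each line kept the order of that line for these 3 genes. The lower ranks were closer together. In untreated WT cells Gclc (909 per kilobase) and Sod2 (902) overlapped, as did Hmox1 (296) and Srxn1 (265), the lowest of the 10. Srxn1 was also the lowest in untreated Cfp1−/− cells, at 101 ± 3.81 per kilobase, while Gclm was the lowest in treated cells of both lines (298 ± 13.5 in WT, 162 ± 20.9 in Cfp1−/− cells, where it overlapped Srxn1).

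**Figure D1:**
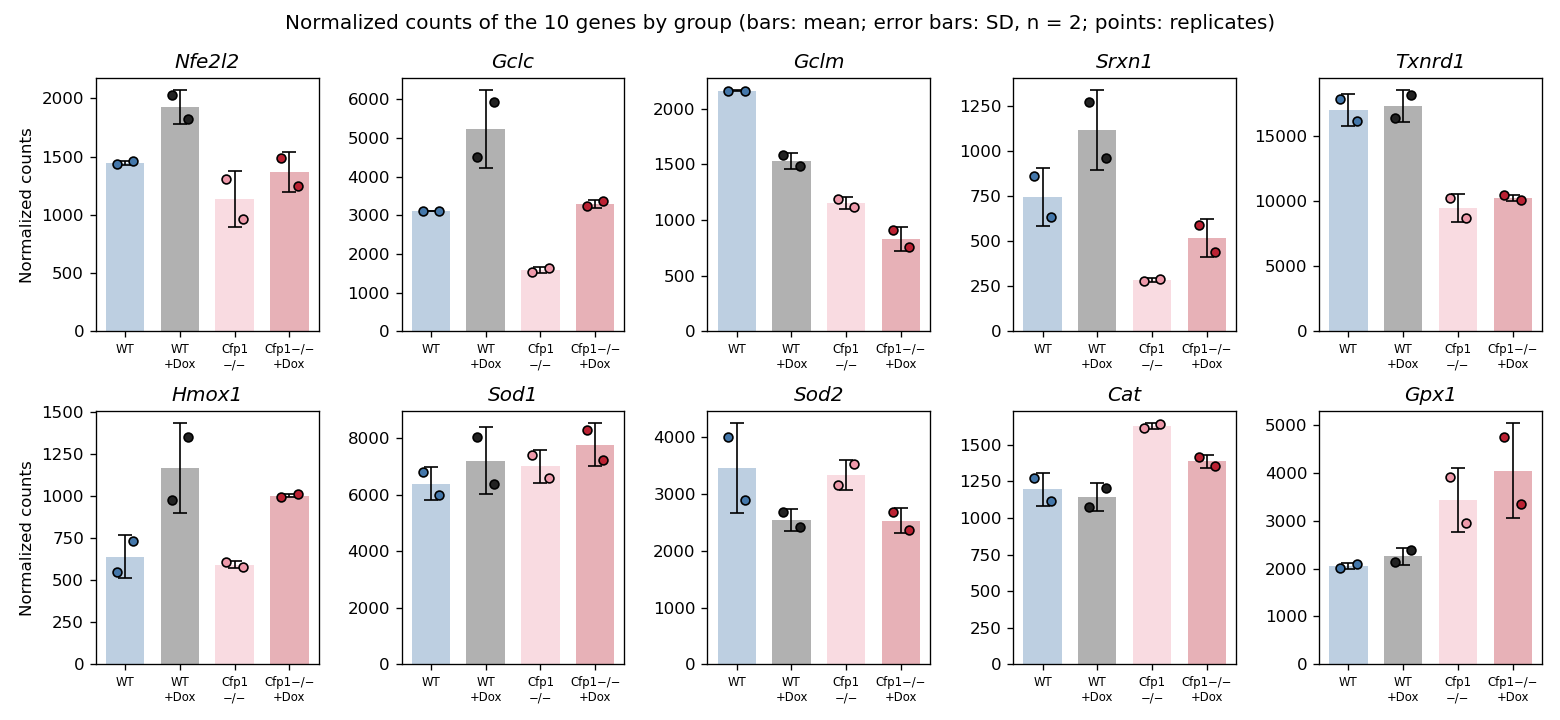
Normalized counts of the 10 genes (vertical axis, a separate linear scale for each gene) in the 4 groups, with bars at the mean, error bars of 1 SD and points for the 2 biological replicates. Gclc, Gclm and Srxn1 separate all 4 groups, Txnrd1 separates the lines alone, Hmox1 separates treated from untreated cells, and Sod1 overlaps between all groups compared.

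The first question was how the 10 genes respond to doxorubicin in WT cells. By edgeR's quasi-likelihood test, with p-values adjusted over all 15758 genes tested, 4 of the 10 passed an adjusted p of 0.05 (48.3% of all genes did), 3 of them higher (26.5% of all genes) and 1 lower (21.8%). The share of members called was thus near that of all genes. By the stricter limits that the study set for its own calls, a 2.5-fold change with at least 200 normalized counts on average, 0 of the 10 passed (7.91% of all genes did). The median log2 fold change of the 10 was 0.20, against 0.06 over all genes tested.

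Hmox1, heme oxygenase 1, had 548 and 730 normalized counts in the untreated WT replicates and 976 and 1352 in the treated ones. All treated values lay above all untreated ones, and the gene rose 1.88-fold (log2 fold change 0.91, SE 0.196, adjusted p = 0.00388). Gclc, the catalytic subunit of glutamate-cysteine ligase, went from 3108 and 3112 to 4521 and 5935 normalized counts. Its untreated replicates were close together and its treated replicates were not, and it rose 1.74-fold (log2 0.80, SE 0.144, adjusted p = 0.00152). Gclm, the modifier subunit of the same enzyme, moved the other way, from 2158 and 2162 to 1579.8 and 1482 normalized counts, and fell by 0.45 on the log2 scale (SE 0.138, adjusted p = 0.0225). Srxn1, sulfiredoxin, went from 860 and 633 to 1271 and 960.1 normalized counts. Its groups did not overlap, but both replicates numbered 1 were the higher ones, and the rise of 1.54-fold (log2 0.62, SE 0.218) had an adjusted p of 0.0388.

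Nfe2l2 itself had 1436 and 1459 normalized counts in untreated and 2025 and 1821 in treated WT cells. The groups did not overlap, and the log2 difference of 0.46 (SE 0.172, 95% interval 0.07 to 0.84) missed the threshold with an adjusted p of 0.0512. By edgeR's test the adjusted p was 0.0143 with the replicate number as a block, 0.0481 without the filter on low counts and 0.00172 with technical replicates unsummed. Without the second technical run of treated Cfp1−/− replicate 1 it was 0.0368. DESeq2, and its size factors in edgeR, gave no call, so that the call of Nfe2l2 depended on the fit. Sod2, the mitochondrial superoxide dismutase, had 4006 and 2891 normalized counts untreated and 2675 and 2408 treated. Its log2 difference of −0.39 (SE 0.168) also missed the threshold (adjusted p = 0.0776) and passed it with the block (adjusted p = 0.0338). The other 4 members gave no call and log2 differences of 0.22 for Sod1, 0.18 for Gpx1, 0.07 for Txnrd1 and −0.02 for Cat. The 95% interval for Txnrd1, from −0.23 to 0.37, and that for Cat, from −0.33 to 0.28, leave room for changes of that size in either direction.

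Each of the 8 biological replicates was left out in turn, with the group that then held 1 library assumed to vary like the others. The calls of Gclc and Hmox1 in WT cells passed in all 8 fits. Gclm lost its call without untreated replicate 1 (log2 −0.45, adjusted p = 0.0828) or 2 (−0.46, 0.0738), and without treated replicate 1 (−0.50, 0.0538) or 2 (−0.41, 0.0957). Srxn1 lost its call without untreated replicate 2 (log2 0.41, adjusted p = 0.236) or treated replicate 1 (0.40, 0.234), and without untreated Cfp1−/− replicate 1 or 2, which share only the estimate of the spread (adjusted p = 0.0507 and 0.0543). With only the WT groups in the fit Srxn1 missed the threshold (log2 0.63, adjusted p = 0.0592) and Nfe2l2 passed it (0.46, 0.0291). Scaling by total counts alone shifted the median of all genes by 0.31 on the log2 scale. It gave 7 members higher and 0 lower, against 5731 higher and 1836 lower of all genes. Gclm was then at −0.14 (adjusted p = 0.424 by edgeR's test), so that its call depended on the scaling.

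The same question was asked of Cfp1−/− cells. Again 4 of the 10 passed the threshold (48.8% of all genes), 3 higher (27.8%) and 1 lower (21.0%), and they were the 4 called in WT cells. By the study's limits 0 of the 10 passed (7.61%). The median log2 fold change of the 10 was 0.24, against 0.01 over all genes tested. Gclc had 1541 and 1639.5 normalized counts untreated and 3229 and 3372 treated, a rise of 2.14-fold (log2 1.10, SE 0.145, adjusted p = 2.69e-04). The treated Cfp1−/− replicates lay just above the untreated WT ones, at 3108 and 3112. Srxn1 went from 277 and 292 to 590.3 and 442.5 normalized counts, a rise of 1.87-fold (log2 0.90, SE 0.224, adjusted p = 0.00841). All 4 values lay below the lowest WT value of either treatment, 633. Hmox1 went from 605 and 579.7 to 996 and 1008, with no overlap and a spread between replicates smaller than in WT cells, and rose 1.74-fold (log2 0.80, SE 0.195, adjusted p = 0.00764). Gclm had 1192 and 1117 normalized counts untreated and 909 and 757 treated, and fell by 0.43 on the log2 scale (SE 0.140, adjusted p = 0.0288).

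Nfe2l2 had 1303.5 and 968 normalized counts in untreated and 1491 and 1245 in treated Cfp1−/− cells. These ranges overlapped, and the log2 difference of 0.31 (SE 0.172) gave no call (adjusted p = 0.163). Sod2 had 3150.2 and 3516.5 untreated and 2685 and 2371.5 treated, with no overlap and a log2 difference of −0.36 (adjusted p = 0.106). It passed with the replicate number as a block (adjusted p = 0.0414) and without the affected technical run (log2 −0.42, adjusted p = 0.0496). Cat, catalase, had 1612 and 1640.4 normalized counts untreated and 1419.6 and 1357 treated, also without overlap, at a log2 difference of −0.19 (adjusted p = 0.283). Gpx1 (log2 0.28), Sod1 (0.19) and Txnrd1 (0.16) gave no call.

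Gclc passed in all 8 fits that left out a replicate. The call of Hmox1 was lost without untreated Cfp1−/− replicate 2 (log2 0.75, adjusted p = 0.0502) and that of Srxn1 without treated replicate 1 (log2 0.66, adjusted p = 0.0749). Gclm lost its call without untreated replicate 1 (log2 −0.39, adjusted p = 0.105) or 2 (−0.49, 0.0587) and without treated replicate 2 (−0.30, 0.189). Total count scaling, which moved the median of all genes by 0.21, gave 7 members higher and 0 lower here too, against 5271 higher and 2057 lower of all genes, with Gclm at −0.22 (adjusted p = 0.218).

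**Figure D2:**
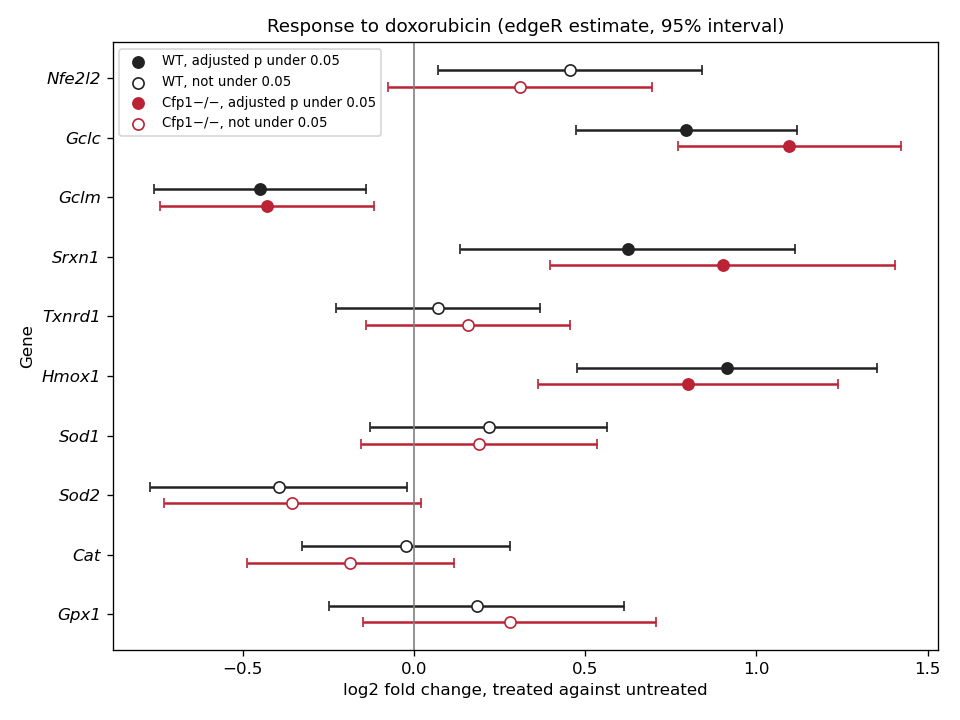
Log2 fold change after doxorubicin (horizontal axis) of each of the 10 genes in WT (black) and Cfp1−/− cells (red), as edgeR estimates with 95% intervals; filled points passed an adjusted p of 0.05. Gclc, Srxn1 and Hmox1 lie to the right of 0 and Gclm to the left of it with filled points in both lines, and the intervals of the lines overlap for every gene.

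Whether the response differs between the lines was tested as an interaction, since a gene called in both lines or in 1 line says nothing of a difference. None of the 10 members passed edgeR's test of the response difference (0.235% of all genes did). At an unadjusted p under 0.05 the count was also 0 of the 10, against 10.6% of all genes, and DESeq2 and the fit with the replicate block called 0 as well. The estimates of the difference, Cfp1−/− minus WT, ran from −0.16 on the log2 scale (Cat) to 0.30 (Gclc). For Gclc the 95% interval of the difference was −0.15 to 0.76, for Hmox1 −0.73 to 0.50, for Srxn1 −0.42 to 0.97 and for Nfe2l2 −0.69 to 0.40. Intervals of this width do not show that the lines respond alike.

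The next comparison asked how the 10 genes differ between untreated Cfp1−/− and WT cells. It shares its untreated libraries with both responses above. Of the 10, 6 passed the threshold (34.0% of all genes), 2 higher in Cfp1−/− cells (17.9% of all genes) and 4 lower (16.1%). The median log2 difference of the 10 was −0.20, against 0.01 over all genes tested. Among the 10, the 4 lower genes were the 4 of glutathione synthesis and thiol reduction, and the 2 higher ones were Gpx1 and Cat, which remove hydrogen peroxide. Other peroxidase genes, in the lists below, did not all follow this split (Gpx4 and Prdx2 were lower).

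Srxn1 had 860 and 633 normalized counts in WT and 277 and 292 in Cfp1−/− cells, 2.57-fold lower in the latter (log2 −1.36, SE 0.225, adjusted p = 0.00200). It was the only member past the study's limits (3.33% of all genes). Gclc, at 3108 and 3112 in WT and 1541 and 1639.5 in Cfp1−/− cells, was 1.92-fold lower (log2 −0.94, SE 0.145, adjusted p = 0.00146). Gclm, at 2158 and 2162 against 1192 and 1117 normalized counts, was 1.83-fold lower (log2 −0.87, SE 0.139, adjusted p = 0.00166). Both subunits of glutamate-cysteine ligase were thus lower by a similar factor, although they moved apart after doxorubicin. Txnrd1 had 17831 and 16138 normalized counts in WT and 10227 and 8725 in Cfp1−/− cells, 1.76-fold lower (log2 −0.81, SE 0.134, adjusted p = 0.00199). For each of these 4 genes every Cfp1−/− value lay below every WT value.

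Gpx1 had 2009 and 2093 normalized counts in untreated WT and 3908 and 2952 in untreated Cfp1−/− cells. The Cfp1−/− replicates lay further apart than the WT ones, both were above them, and the gene was 1.71-fold higher (log2 0.77, SE 0.193, adjusted p = 0.0132). Cat, at 1276 and 1116.5 against 1612 and 1640.4, was 1.39-fold higher (log2 0.47, SE 0.135, adjusted p = 0.0235). Nfe2l2 had 1436 and 1459 normalized counts in WT and 1303.5 and 968 in Cfp1−/− cells, all lower, but its log2 difference of −0.32 (SE 0.172, 95% interval −0.71 to 0.06) was not called (adjusted p = 0.175). Hmox1 (log2 −0.08, adjusted p = 0.781), Sod1 (0.16, 0.442) and Sod2 (−0.02, 0.937) were not called either. Hmox1 lies on chromosome 8, where the median log2 difference of the 823 genes tested was −0.23 against 0.01 over all genes. Txnrd1 lies on chromosome 10, where the median of the 741 genes tested was −0.13, with 87 called higher and 156 lower. The part of these chromosome-wide shifts in the values of Hmox1 and Txnrd1 was not tested.

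Srxn1, Gclc, Gclm and Txnrd1 passed in all 8 fits that left out a replicate, and under total count scaling, which moved the median of all genes by 0.19. Gpx1 lost its call without WT replicate 1 (log2 0.75, adjusted p = 0.0543) or 2 (0.80, 0.0511) or Cfp1−/− replicate 1 (0.57, 0.0868), and Cat without WT replicate 2 (0.37, 0.168) or Cfp1−/− replicate 1 (0.50, 0.0743) or 2 (0.47, 0.0853).

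Under doxorubicin, 5 of the 10 differed between the lines (25.9% of all genes), 1 higher in Cfp1−/− cells (15.1%) and 4 lower (10.8%), and 0 passed the study's limits (2.61%). The median log2 difference was −0.33, against 0.02 over all genes tested. The 4 lower genes were again Srxn1, Gclm, Txnrd1 and Gclc. Srxn1, at 1271 and 960.1 normalized counts in treated WT and 590.3 and 442.5 in treated Cfp1−/− cells, was 2.12-fold lower (log2 −1.08, SE 0.221, adjusted p = 0.00762). Gclm, at 1579.8 and 1482 against 909 and 757, was 1.81-fold lower (log2 −0.85, SE 0.140, adjusted p = 0.00299). Txnrd1, at 16394 and 18126 against 10428 and 10108, was 1.65-fold lower (log2 −0.72, SE 0.134, adjusted p = 0.00491). Every treated WT value lay above every treated Cfp1−/− value for these genes. Gclc, at 4521 and 5935 against 3229 and 3372, was 1.56-fold lower (log2 −0.64, SE 0.144, adjusted p = 0.0115). Gpx1 went from 2134 and 2379 normalized counts in treated WT to 4739.7 and 3349 in treated Cfp1−/− cells and was 1.82-fold higher (log2 0.87, SE 0.193, adjusted p = 0.0109).

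Nfe2l2 was lower in both treated Cfp1−/− replicates (1491 and 1245 normalized counts) than in both treated WT replicates (2025 and 1821). Its log2 difference of −0.47 (SE 0.172) had an adjusted p of 0.0731 in edgeR, 0.0475 in DESeq2, 0.0185 with the replicate block and 0.0315 without the affected technical run, so that the call depended on the fit. Cat (log2 0.31, adjusted p = 0.122), Hmox1 (−0.19, 0.494), Sod1 (0.13, 0.554) and Sod2 (0.02, 0.951) were not called. The median of chromosome 8 was −0.25, beside the value of Hmox1, and that of chromosome 10 was −0.10, beside the value of Txnrd1. Gclm and Txnrd1 passed in all 8 fits that left out a replicate. Gclc lost its call without treated WT replicate 2 (log2 −0.43, adjusted p = 0.0784) or treated Cfp1−/− replicate 1 (−0.62, 0.0647) or 2 (−0.66, 0.0586), Srxn1 without treated Cfp1−/− replicate 2 (−0.88, 0.0670), and Gpx1 without treated WT replicate 1 (0.79, 0.0543) or treated Cfp1−/− replicate 1 (0.58, 0.0841).

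**Figure D3:**
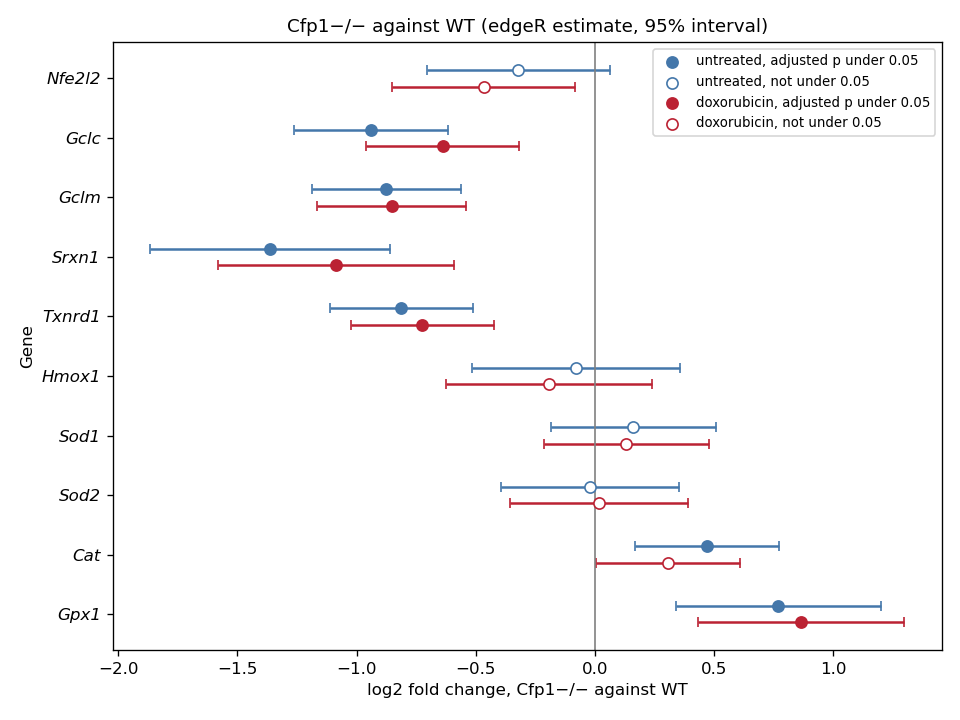
Log2 difference between Cfp1−/− and WT cells (horizontal axis) of each of the 10 genes, untreated (blue) and under doxorubicin (red), as edgeR estimates with 95% intervals; filled points passed an adjusted p of 0.05. Gclc, Gclm, Srxn1 and Txnrd1 lie to the left of 0 and Gpx1 to the right of it with filled points in both conditions.

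Likeness of pattern over the 8 biological replicates was measured by the root mean square difference of centered log2 CPM. CPM are counts scaled to library size with edgeR's TMM factors, and the 9499 genes averaging 200 normalized counts or more were compared. The genes most like Nfe2l2 were Glud1 (0.054), Ttc7b (0.0893) and Acads (0.0915). Glud1 encodes the mitochondrial glutamate dehydrogenase, and its mean normalized counts were 9310.1, 12408, 6840.5 and 9078 in untreated WT, treated WT, untreated Cfp1−/− and treated Cfp1−/− cells. Among the other members, Txnrd1 was the closest to Nfe2l2 (0.260) and Gpx1 the farthest (0.619). For Hmox1 the closest genes were Fbxo25 (0.124), Hcfc1r1 (0.126) and Abcb10 (0.128), of which Fbxo25 and Abcb10 lie, like Hmox1, on chromosome 8. The closest members to Hmox1 were Nfe2l2 (0.349) and Gclc (0.368), and the farthest was Gclm (0.772).

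The rest of the pathway was described by 6 lists of 53 genes, 52 of which were tested. After doxorubicin in WT cells 9 of the 52 rose and 8 fell (26.5% and 21.8% of all genes did), with a median log2 fold change of −0.02. In Cfp1−/− cells 6 rose and 9 fell (27.8% and 21.0% of all genes), with a median of −0.02. In the fit without a block, the lists thus held a smaller share of called genes than the whole table. With the replicate number as a block, 25 of the 52 were called in Cfp1−/− cells in place of 15. The share of all genes called with the block is not given here. Total count scaling turned these splits to 15 higher and 4 lower in WT and 10 higher and 4 lower in Cfp1−/− cells. No list gene passed the test of the response difference in edgeR, in DESeq2 or with the block.

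Among the 12 genes that control Nrf2 or are related to it, 2 rose and 1 fell in WT cells and 2 rose and 3 fell in Cfp1−/− cells. Mafk, a small Maf partner of Nrf2, rose from 304 and 365 to 844 and 1252 normalized counts in WT (log2 1.70, adjusted p = 2.01e-04) and from 184 and 224 to 795 and 844 in Cfp1−/− cells (log2 2.05, adjusted p = 7.96e-05). Cul3, the scaffold of the ligase that ubiquitinates Nrf2, fell by 1.34 in WT and by 1.14 in Cfp1−/− cells on the log2 scale (adjusted p = 4.82e-05 and 1.25e-04). Its adaptor Keap1 gave log2 differences of −0.33 (adjusted p = 0.259) and −0.55 (adjusted p = 0.0776, and 0.0224 with the block). Bach1, a repressor that competes for the same elements, was not called (log2 −0.17 and −0.30). Nfe2l1, a relative of Nrf2, fell by 0.44 in Cfp1−/− cells (adjusted p = 0.0364).

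Of the 11 other genes of glutathione supply and use, 2 rose and 2 fell in each line. Gpx3, the secreted glutathione peroxidase, had the widest change, from 69.7 and 106 to 597 and 615 normalized counts in WT (log2 2.84, adjusted p = 5.19e-05) and from 209 and 122.5 to 982 and 1010.3 in Cfp1−/− cells (log2 2.63, adjusted p = 6.67e-05). Gss, glutathione synthetase, which acts after glutamate-cysteine ligase, rose in both lines (log2 1.13 and 0.76, adjusted p = 0.00142 and 0.0110). Gsr, the reductase that regenerates glutathione, fell by 0.76 on the log2 scale in WT cells (adjusted p = 9.08e-04) and gave −0.27 in Cfp1−/− cells (adjusted p = 0.105). Slc3a2, a chain of the cystine transporter, fell by 0.65 in Cfp1−/− cells (adjusted p = 0.0274), but it had 1362 counts in the first and 0 in the second technical run of treated replicate 1. Without that run its log2 fold change was −0.39 (adjusted p = 0.0250).

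Of the 11 thioredoxins and peroxiredoxins, 0 rose and 2 fell in WT and 0 rose and 1 fell in Cfp1−/− cells. Total count scaling gave 2 higher and 0 lower in WT and 2 higher and 1 lower in Cfp1−/− cells, the block gave 1 higher and 3 lower in Cfp1−/− cells, and without the affected run 1 was higher and 1 lower there. The higher one was Txnrd2, the mitochondrial thioredoxin reductase (log2 0.76, adjusted p = 0.0351), named after its value was seen. Prdx3, the mitochondrial peroxiredoxin, fell by 0.52 in WT and by 0.85 in Cfp1−/− cells (adjusted p = 0.0438 and 0.00481), the latter with 0 counts in the affected run and −0.56 without it (adjusted p = 0.0161). Prdx4, the peroxiredoxin of the endoplasmic reticulum, fell by 0.75 in WT cells (adjusted p = 0.0426). Of the 11 genes for quinone reduction, conjugation and NADPH supply, 3 rose and 2 fell in WT and 1 rose and 2 fell in Cfp1−/− cells. Ephx1, the microsomal epoxide hydrolase, rose from 55.2 and 58.4 to 982 and 625 normalized counts in WT (log2 3.87, adjusted p = 9.18e-06) and from 145 and 103 to 1188 and 1332 in Cfp1−/− cells (log2 3.39, adjusted p = 1.42e-05). Nqo1, the quinone reductase often used as a readout of Nrf2, gave log2 differences of 0.35 and 0.44 without a call (adjusted p = 0.304 and 0.197). With the block it passed in both lines (adjusted p = 0.0349 and 0.0178). Abcc1, an exporter of glutathione conjugates, fell by 0.91 and 0.57 (adjusted p = 4.53e-04 and 0.00611), and Gsta4, a glutathione transferase, fell by 0.41 and 0.42 (adjusted p = 0.0407 and 0.0366), the latter −0.32 without the affected run (adjusted p = 0.107). G6pdx, the entry enzyme of the pentose phosphate pathway, had 1325 counts in the first and 173 in the affected run, and its log2 value in Cfp1−/− cells was 0.46 with that run (adjusted p = 0.0865) and 0.65 without it (adjusted p = 0.00409). The list then stood at 2 higher and 1 lower in Cfp1−/− cells. Gstm1, another transferase with close paralogs, rose in WT cells (log2 0.76, adjusted p = 0.00554). In the heme and iron list, Fth1, the ferritin heavy chain, rose in WT cells (log2 0.87, adjusted p = 0.0146). Its value in Cfp1−/− cells, 0.44 (adjusted p = 0.165), included a run with 6 counts against 4822 in the other run, and without it the value was 0.69 (adjusted p = 0.00552). Ccs, the copper chaperone of Sod1, rose in WT cells (log2 0.76, adjusted p = 0.0131), while Sod3 did not pass the filter on low counts.

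Between the untreated lines 11 of the 52 list genes were higher in Cfp1−/− cells and 14 lower (17.9% and 16.1% of all genes), with a median log2 difference of −0.12. Under doxorubicin 7 were higher and 11 lower (15.1% and 10.8% of all genes), with a median of −0.10. Total count scaling gave 14 higher and 8 lower without and 9 higher and 8 lower with the drug. The thioredoxin and peroxiredoxin list had 0 higher and 5 lower of 11 in untreated and 0 higher and 4 lower in treated cells, and 0 higher and 2 lower in each under total count scaling. Txnrd3, a thioredoxin reductase of the testis, was 152 and 180.0 normalized counts in untreated Cfp1−/− against 534 and 387 in untreated WT cells (log2 −1.44, adjusted p = 0.00189), and Prdx2, a cytosolic peroxiredoxin, was also lower (log2 −0.72, adjusted p = 0.00983). Gpx4, the peroxidase for lipid hydroperoxides, was lower in untreated (log2 −1.08, adjusted p = 0.00134) and treated Cfp1−/− cells (−0.66, 0.0171). Gsr was lower in untreated cells (log2 −0.62, adjusted p = 0.00516). Prdx2 and Gsr lie on chromosome 8, with its lower median.

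Of the NADPH and conjugation genes 4 were higher and 4 lower in untreated Cfp1−/− cells. G6pdx was lower (log2 −0.88, adjusted p = 0.00981), as was transketolase, Tkt (−0.78, 0.00426), while transaldolase, Taldo1, was higher (0.87, 0.00148). Gstm1 was higher (log2 0.71, adjusted p = 0.0114). Under doxorubicin G6pdx (log2 −1.11, and −0.93 without the affected run), Tkt (−0.84) and Taldo1 (0.77) kept their directions, and Abcc1 was higher (0.92, adjusted p = 0.00175). In the heme and iron list Ftl1, the ferritin light chain, was higher in both conditions (log2 1.93 and 1.90, adjusted p = 5.04e-05 and 9.56e-05), although near-identical copies of this gene make its count uncertain. Slc40a1, the iron exporter, was lower (log2 −3.12, adjusted p = 7.10e-04, and −1.40, adjusted p = 0.0242). Ccs was higher (1.25 and 0.65, adjusted p = 0.00196 and 0.0403).

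Among the controllers of Nrf2, Sqstm1, the autophagy adaptor that can sequester Keap1, was higher in untreated Cfp1−/− cells, at 5903 and 6217 against 3504 and 3363 normalized counts (log2 0.85, adjusted p = 0.00228), and under doxorubicin (log2 0.46, adjusted p = 0.0414). Nfe2l1 was higher as well (log2 0.73 and 0.48, adjusted p = 0.00583 and 0.0463, the latter 0.0565 without the affected run). The small Maf genes Maff (log2 −1.24, adjusted p = 0.0284) and Mafk (−0.68, 0.0371) were lower in untreated cells. Bach1 was lower under doxorubicin (log2 −0.73, adjusted p = 0.0354) and gave −0.60 untreated (adjusted p = 0.0580, and 0.0233 with the block). Keap1 gave −0.47 untreated (adjusted p = 0.140) and −0.69 treated (adjusted p = 0.0570, 0.0147 with the block, 0.0448 without the affected run), while Nqo1 gave 0.27 and 0.36 without a call (adjusted p = 0.463 and 0.352).

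**Figure D4:**
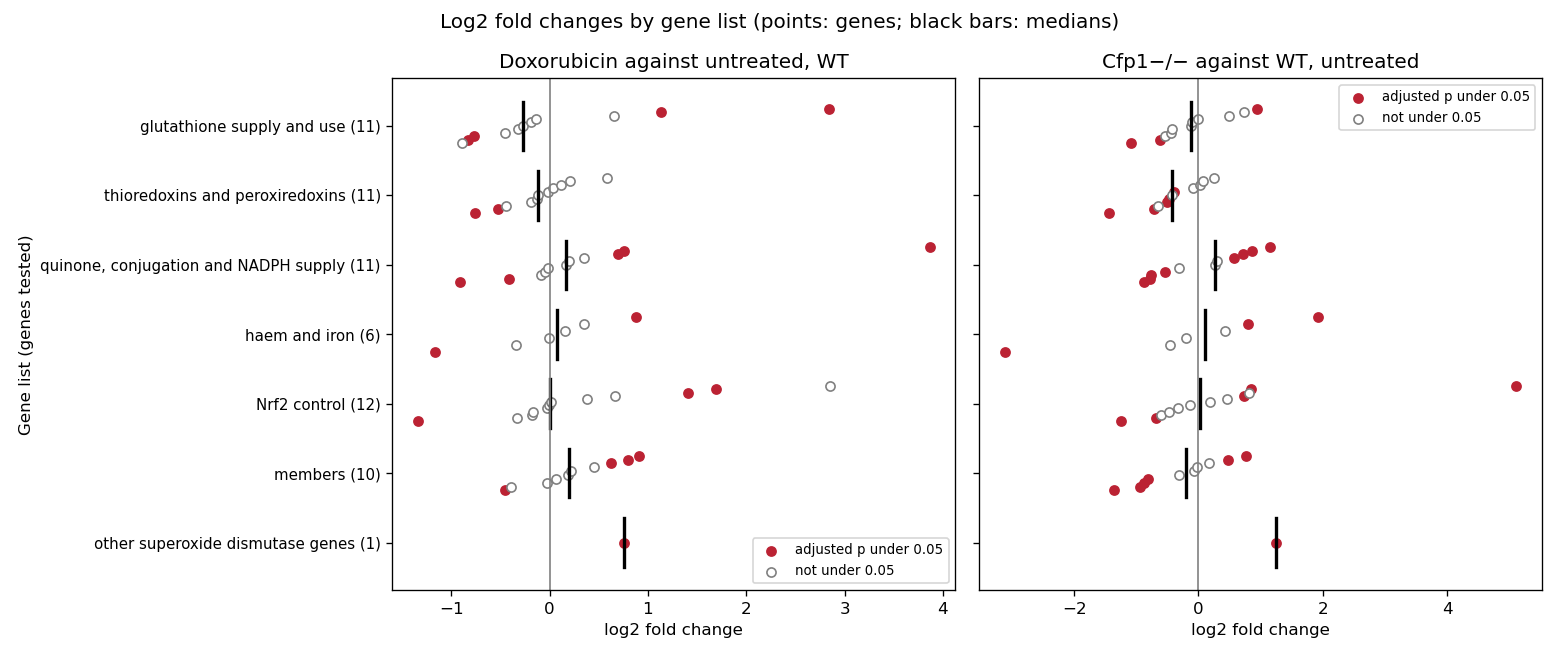
Log2 fold changes of the 10 members and the 6 pathway lists (rows, with the number of genes tested) after doxorubicin in WT cells (left) and between untreated Cfp1−/− and WT cells (right), where points are genes, red points passed an adjusted p of 0.05 and black bars mark the list medians. Red points lie on both sides of 0 in most rows, with the members at 3 higher and 1 lower on the left and 2 higher and 4 lower on the right; the point past 5 on the right is Nfe2, which had 0 to 21.3 normalized counts in any library.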

How the data were processed

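Ribosomal-RNA-depleted total RNA was sequenced in 16 samples, 2 technical replicates of each of 8 biological replicates. The authors mapped the read pairs to NCBIm37 by STAR (version 2.2.1 in the submitters' processing notes) and deposited raw counts, which HTSeq-count had made on the sense strand over exons of Ensembl genes. They also deposited a normalized signal, which equals the counts summed over technical replicates and divided by a DESeq size factor.

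The summed counts were fitted with edgeR 4.0.16 in R 4.3.3 (filterByExpr, TMM, 1 coefficient per group, the quasi-likelihood test), with Benjamini-Hochberg adjusted p-values over all 15758 genes past the filter. The SE is the log2 fold change divided by the root of F. Alternatives were DESeq2 1.42.0, its size factors in edgeR, total count scaling, all genes unfiltered, a replicate block, unsummed technical replicates, a fit of the compared groups alone, the study's limits, and omission of each biological replicate or of the affected technical runs. Total count scaling of the lists, and the block combined with omission of the affected run, were chosen after seeing the data.

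Deviations from the group means correlated, across genes, by 0.118 to 0.361 between same-numbered biological replicates of the 6 pairs of groups. The number was used as a block only in alternative fits, and the other calls ignore any pairing. What same-numbered replicates share is not given in the sources used here. Nor is it stated that they came from separate cultures, and p-values then measure only the spread between these samples, which may be technical. Exon lengths came from an NCBIM37 annotation that matched 22324 of 22375 genes.

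The members and lists were chosen with earlier results of these data known. List genes were named where they passed an adjusted p of 0.05 and averaged 200 normalized counts or more, at most 2 higher and 2 lower per list and comparison, and Keap1, Bach1 and Nqo1 were named throughout. The fits were tested on simulated counts. Sox1 and Map2 of the marker lists were not analysed here.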

Additional observations from a re-analysis of the deposited data

How the results depend on the processing

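Each group had 2 biological replicates, and each member had at least 299 counts in a library. Which of spread and depth limits the calls was not tested. The number of members called moved to 7 in the WT and 7 in the Cfp1−/− response under total count scaling, to 7 in the Cfp1−/− response with technical replicates unsummed, and to 0, 0, 1 and 0 under the study's limits (WT response, Cfp1−/− response, untreated lines, treated lines). DESeq2, its size factors and the fit of the compared groups gave 4 to 6 members in these 4 comparisons, but with Nfe2l2 in place of Srxn1 in the WT response when only the compared groups were fitted (adjusted p = 0.0291 and 0.0592). Leaving out 1 replicate gave 2 to 4 members in the WT response, 2 to 5 in the Cfp1−/− response, 4 to 6 between untreated and 3 to 5 between treated lines, and 0 for the response difference. The lowest counts came without treated WT replicate 1 (2, WT response), without untreated Cfp1−/− replicate 2 (2, Cfp1−/− response) and without either treated Cfp1−/− replicate (3, treated lines). The replicate block gave 6 members in the WT and 5 in the Cfp1−/− response, 6 between untreated and 6 between treated lines, and 25 list genes in place of 15 in the Cfp1−/− response. It changed no member's call but those of Nfe2l2 and Sod2 given above. For the block, the unsummed technical replicates and the fits that left out a replicate, the share of all genes called is not given here. A larger count of members under them is therefore not a result about the members.

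None of the values that turned sign had been called. Under total count scaling they were, on the log2 scale, Cat 0.29 in the WT and 0.029 in the Cfp1−/− response, Gclm −0.079, Txnrd1 −0.0095, Sod2 −0.062 and Gpx1 −0.0048 in the response difference, and Hmox1 0.11 and Sod2 0.17 between untreated lines. In the response difference, Gclm was −0.024 with technical replicates unsummed, −0.03 without the affected run and −0.029 with the replicate block added to that, and Sod2 was −0.029 and −0.040 under the latter 2. Without the second runs of both treated replicates 1, Cat was 0.013 in the WT response and Sod2 −0.017 between treated lines. Sod2 was 0.0038 between untreated and −0.0022 between treated lines in the fit of the compared groups. Between treated lines it was −0.0059 with DESeq2 size factors and in DESeq2, −0.05 without the affected run and −0.047 with the replicate block added to that. The cause of these turns was not tested.

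Leaving out 1 replicate turned further uncalled values, with ranges of −0.017 to 0.14 for Txnrd1 and −0.13 to 0.077 for Cat in the WT response and −0.013 to 0.51 for Gpx1 in the Cfp1−/− response. In the response difference the ranges were −0.36 to 0.077 for Nfe2l2, −0.37 to 0.14 for Hmox1, −0.13 to 0.16 for Gclm, −0.034 to 0.20 for Txnrd1, −0.011 to 0.49 for Srxn1, −0.19 to 0.14 for Sod1, −0.27 to 0.22 for Sod2 and −0.19 to 0.33 for Gpx1. Between untreated lines they were −0.26 to 0.14 for Hmox1 and −0.24 to 0.25 for Sod2, and between treated lines −0.41 to 0.059 for Hmox1, −0.028 to 0.30 for Sod1 and −0.091 to 0.11 for Sod2.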
